A study of Homo sapiens with 9 samples.

Results

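Megakaryocyte and platelet genes were followed in K562 cells, a human chronic myelogenous leukaemia line, after knockdown of DHX34 or UPF1. The set held 8 named genes: ITGA2B, ITGB3, THBS1, TUBB1, GP1BB, GP6, MEIS1 and CD9, of 58214 genes for which the transcripts of the files could be summed. They were chosen by name from results in which the expected counts of the DHX34 and SCR libraries had been compared, so the DHX34 values below are a description and carry no test. Cells received non-targeting siRNA (SCR, entered as WT in the treatment field), siRNA against DHX34 or siRNA against UPF1, with 3 libraries in each group and harvest on day 4. All 3 groups thus shared the siRNA transfection, and the line was spelled K652 in one field of the labels and K562 in the titles. The knockdowns were transient and used siRNA pools, so a remaining level of each target is part of the model. UPF1 is the central helicase of nonsense-mediated decay (NMD), by which cells remove messages that stop too early, and DHX34 is another helicase that takes part in it.

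Megakaryocytes are the large bone marrow cells that shed platelets, and they share a progenitor with red blood cells. K562 cells stand near that branch point: they make embryonic and fetal globins and can be driven by chemical inducers toward megakaryocyte-like or erythroid cells. Platelets bind a damaged vessel wall through the GPIb-IX-V complex and the collagen receptor GPVI, aggregate through the integrin αIIbβ3, which binds fibrinogen, and release adhesive proteins such as thrombospondin-1 from their granules.

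The total expected count, which is the number of reads that the quantification assigned to transcripts, ranged from 73478797 to 103625443 per library. Levels are given as CPM, the expected counts scaled to a common library size, for comparisons between groups and as TPM, the deposited transcript abundance that corrects for length, for comparisons between genes. DHX34 was at 73.6 ± 1.14 CPM in SCR (SD, n = 3) and at 31.4 ± 2.27 CPM in its knockdown, and UPF1 was at 261.3 ± 8.31 CPM in SCR and at 105.6 ± 1.58 CPM in its knockdown. Erythroid markers were abundant, with 15 genes summing to 14810 to 15805 CPM in SCR. Some genes of platelet receptors and granule cargo were almost silent: PF4, PPBP, VWF, SELP, GP9, P2RY12, CLEC1B, F5, F13A1 and TREML1 averaged 0 to 0.0227 CPM in each group. They are among the lowest of the receptor and granule lists described below, where 9 of 23 and 9 of 20 genes stayed under 1 CPM in every library. Other genes of these lists were abundant in SCR, such as CD63 (301.7 CPM), TGFB1 (246.7) and SRGN (146.2). The libraries therefore held the 8 genes with only part of the platelet genes listed. In RNA from bulk cultures, more cells of a type and more RNA per cell cannot be told apart.

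The stretches of 250 bases ahead of the annotated start are shown for 4 members that cover the range of responses: ITGA2B and THBS1, with the largest positive differences after DHX34 knockdown, GP6, with a small one, and GP1BB, with a negative one. Sequences and coordinates are those of RefSeq on GRCh38.p14, written 5′ to 3′ on the strand of the gene, and capitals mark matches to a GATA motif (GATA preceded by A or T and followed by A or G) or an ETS motif (GGAAG preceded by A or C) on either strand.
ITGA2B (chr17:44389650-44389899, minus strand): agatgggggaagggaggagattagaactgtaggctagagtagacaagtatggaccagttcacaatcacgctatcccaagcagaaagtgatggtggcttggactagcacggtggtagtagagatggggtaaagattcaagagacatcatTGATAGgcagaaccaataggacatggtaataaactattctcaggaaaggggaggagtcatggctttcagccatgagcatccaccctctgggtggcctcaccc
THBS1 (chr15:39580829-39581078, plus strand): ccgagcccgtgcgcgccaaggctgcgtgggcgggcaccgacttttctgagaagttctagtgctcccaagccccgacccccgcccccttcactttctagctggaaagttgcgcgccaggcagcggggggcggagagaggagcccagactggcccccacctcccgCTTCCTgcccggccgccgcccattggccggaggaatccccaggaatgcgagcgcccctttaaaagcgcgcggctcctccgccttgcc
GP6 (chr19:55038265-55038514, minus strand): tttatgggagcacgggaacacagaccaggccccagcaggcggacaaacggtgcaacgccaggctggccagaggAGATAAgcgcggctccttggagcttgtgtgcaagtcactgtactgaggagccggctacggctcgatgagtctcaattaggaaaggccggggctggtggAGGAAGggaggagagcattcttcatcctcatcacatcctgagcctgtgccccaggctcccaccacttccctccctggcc
GP1BB (chr22:19723289-19723538, plus strand): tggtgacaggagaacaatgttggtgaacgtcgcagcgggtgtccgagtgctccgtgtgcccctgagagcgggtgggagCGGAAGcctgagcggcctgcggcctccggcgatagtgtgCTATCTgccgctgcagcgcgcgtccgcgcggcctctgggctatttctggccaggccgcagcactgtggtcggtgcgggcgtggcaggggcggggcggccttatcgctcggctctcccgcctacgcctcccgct

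GATA1 and ETS proteins such as FLI1 are the factors best known for driving platelet genes, which is why these letters were searched. RefSeq windows of 250 bases before to 50 after the start were matched for 7 of the 8 members, with 10 windows in all. The GATA letters were in 5 of these 10 windows, from 4 genes, and 25% of all 35116 windows held them. The ETS letters were in 6 of the 10 windows, from 6 genes, against 46.9% of all windows. In ITGA2B the GATA match (TGATAG) began 102 bases ahead of the start, in GP6 (AGATAA) 177 bases ahead, and in GP1BB, on the opposite strand, 133 bases ahead. THBS1 had an ETS match 87 bases ahead of its start and no GATA match, and TUBB1 had neither. A MEIS motif (TGACAG) was found in 3 of the 10 windows, those of TUBB1, GP1BB and 1 of CD9, against 15.8% of all windows. GP1BB, which was lower after DHX34 knockdown, held a GATA and an ETS match, as did ITGA2B and GP6, which were higher and had no MEIS match. The ETS match of ITGA2B lay just after its start, outside the stretch shown.

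**Figure D1:**
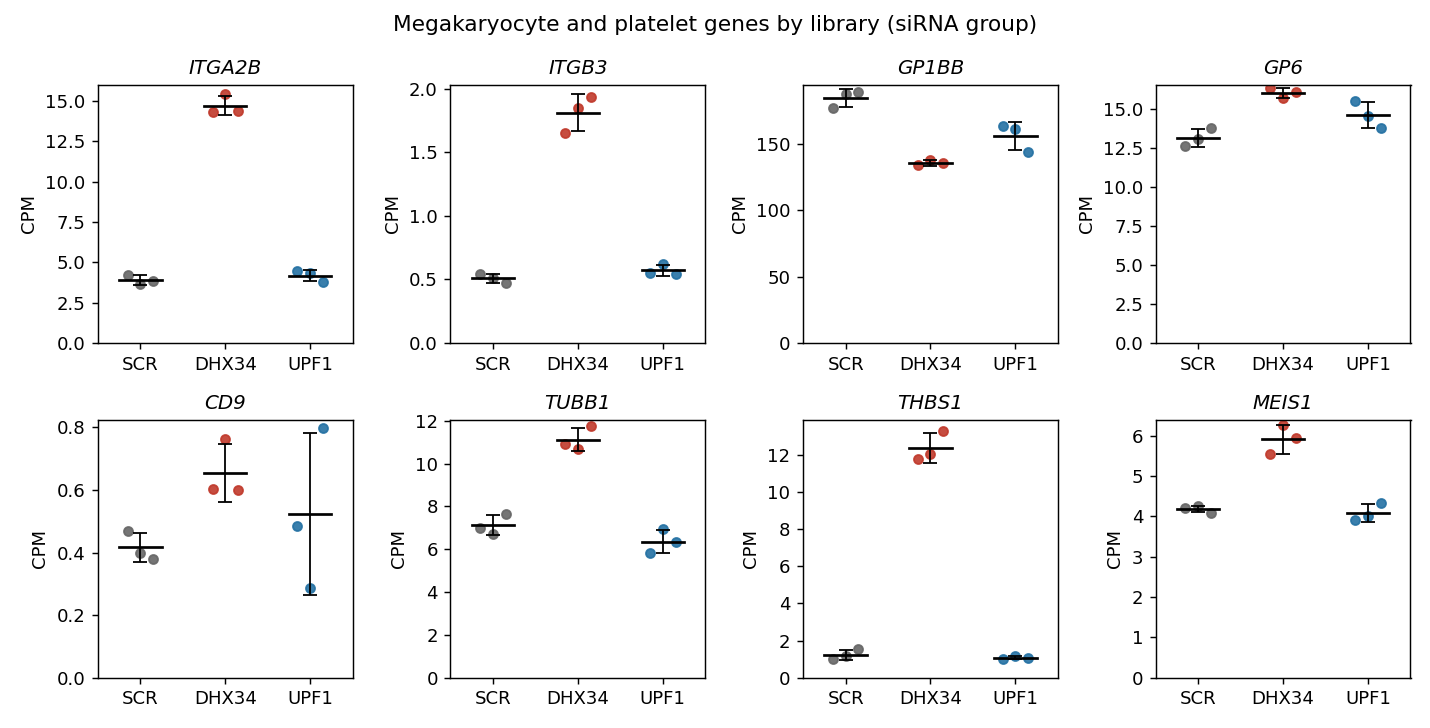
Level of each member in CPM (vertical axes, linear, each starting at 0) by siRNA group (horizontal axis), with 1 point per library, a bar at the mean of 3 libraries and whiskers of 1 SD. The 3 DHX34 libraries lie apart from the 3 SCR libraries in all 8 panels, above them in 7 and below them for GP1BB. The UPF1 libraries overlap SCR in ITGA2B, THBS1, TUBB1, MEIS1 and CD9, lie above SCR in ITGB3 and GP6 and below it in GP1BB.

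All 8 members passed the filter on low counts in each comparison. After DHX34 knockdown, 7 members were higher and 1 was lower than in SCR, with no overlap between the 3 and 3 libraries in any of them. Over the 17004 genes tested, 41.5% had groups that did not overlap, 21.6% as higher and 19.9% as lower, and 10.4% were called at an adjusted p of at most 0.005. Nothing is read from the members' count, since this comparison chose them. The median difference of the members was 0.65 on the log2 scale of expected counts, beside 0.02 for all genes.

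The chains of the fibrinogen receptor had nearly the same difference. ITGA2B (ENSG00000005961, chr17:44372180-44389649, minus strand), which encodes the αIIb chain, was at 4.21, 3.66 and 3.81 CPM in SCR, at 14.4, 15.4 and 14.4 CPM after DHX34 knockdown and at 4.44, 4.33 and 3.76 CPM after UPF1 knockdown. All DHX34 libraries lay above all others, and the UPF1 and SCR libraries overlapped. The DHX34 group mean was 14.7 ± 0.595 CPM (n = 3) against 3.90 ± 0.286, a log2 fold change of 1.92 or 3.77-fold.

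ITGB3 (ENSG00000259207, chr17:47253827-47313743, plus strand), which encodes the β3 chain, was at 0.541, 0.513 and 0.473 CPM in SCR, at 1.65, 1.85 and 1.93 CPM after DHX34 knockdown and at 0.550, 0.624 and 0.544 CPM after UPF1 knockdown. The DHX34 libraries again lay far above the rest, while the UPF1 libraries sat just above SCR. The log2 fold change for DHX34 was 1.83 (3.55-fold). ITGB3 rested on few reads, with 36 to 41 expected counts in the SCR libraries. Per length, ITGA2B was more abundant than its partner: the ratio of their TPM was 11.9 ± 3.26 in SCR, 11.1 ± 0.333 after DHX34 knockdown and 8.78 ± 2.92 after UPF1 knockdown (n = 3 each). The SCR ratios overlapped those of both knockdowns, and the lowest ratio, 5.41, came from UPF1 replicate 1. In that library 54.7% of ITGB3 TPM lay on ITGB3-203, a short transcript with 2.00 expected counts. The highest, 15.65, came from SCR replicate 1, where retained-intron forms took 50.6% of ITGA2B TPM. The ratio of CPM was 7.66 ± 0.479 in SCR, 8.15 ± 0.636 after DHX34 knockdown and 7.30 ± 0.665 after UPF1 knockdown (n = 3 each), with overlap. Both chains were thus higher after DHX34 knockdown by about the same factor, with ITGB3 remaining the scarcer transcript.

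GP1BB (ENSG00000203618, chr22:19723539-19724771, plus strand), which encodes the β chain of GPIb, was the most abundant member and the only one that was lower after DHX34 knockdown. It was at 177, 188 and 190 CPM in SCR, at 134, 138 and 136 CPM after DHX34 knockdown and at 164, 161 and 144 CPM after UPF1 knockdown. Both knockdowns lay below SCR with no overlap, and DHX34 lay below UPF1. The log2 fold change was -0.45 for DHX34 and -0.25 for UPF1. This locus carries a limit: GP1BB is overlapped on the same strand by SEPTIN5, a septin gene, and by a readthrough gene (ENSG00000284874), among which the quantification had to divide reads. SEPTIN5 was at 182.3 ± 6.41, 165.8 ± 8.49 and 225.4 ± 3.33 CPM in SCR, DHX34 and UPF1, and the readthrough gene was at 118.6 ± 10.4, 95.5 ± 3.52 and 100.8 ± 1.81 CPM (n = 3 each). The sum over the 3 genes was 485.9 ± 18.9 CPM in SCR, 397.3 ± 12 CPM after DHX34 knockdown and 482.5 ± 10.8 CPM after UPF1 knockdown. The summed locus was therefore lower in the DHX34 libraries than in SCR, but overlapped SCR in the UPF1 libraries. The partners of GP1BB in the receptor were scarce: GP1BA was at 0.119 CPM in SCR, 0.216 CPM after DHX34 knockdown and 0.280 CPM after UPF1 knockdown on average, GP5 stayed at or under 0.0667 CPM on average, and GP9 was at 0 in every library.

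GP6 (ENSG00000088053, chr19:55013705-55038264, minus strand), the collagen receptor GPVI, differed little. It was at 12.6, 13.1 and 13.8 CPM in SCR, at 16.4, 15.7 and 16.1 CPM after DHX34 knockdown and at 15.5, 14.6 and 13.8 CPM after UPF1 knockdown. The DHX34 libraries were the highest, and the lowest UPF1 library (13.81 CPM) was just above the highest SCR library (13.77 CPM). The log2 fold change for DHX34 was 0.28 (1.22-fold). An antisense gene, GP6-AS1, lies in the same locus and was at 2.02 to 2.38 CPM on average.

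CD9 (ENSG00000010278, chr12:6199715-6238271, plus strand), a tetraspanin of the platelet surface that many other cells also carry, was barely detected. It was at 0.470, 0.399 and 0.380 CPM in SCR, at 0.604, 0.763 and 0.599 CPM after DHX34 knockdown and at 0.485, 0.286 and 0.798 CPM after UPF1 knockdown. The UPF1 libraries spanned the range of both other groups. With 27 to 83 expected counts per library, its log2 fold change of 0.65 for DHX34 rested on the smallest numbers of reads of the set, and without the DHX34 replicate 2 library it was 0.53.

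TUBB1 (ENSG00000101162, chr20:59019429-59026654, plus strand) encodes the β1-tubulin that forms the marginal band of platelets. It was at 7.01, 6.73 and 7.65 CPM in SCR, at 10.9, 10.7 and 11.8 CPM after DHX34 knockdown and at 5.82, 6.93 and 6.34 CPM after UPF1 knockdown. The DHX34 libraries were higher than all others and the remaining groups overlapped. The log2 fold change for DHX34 was 0.64 (1.56-fold). TUBB1 shares its locus with ATP5F1E on the opposite strand, a far more abundant subunit of ATP synthase, at 280.2 ± 6.57, 230.6 ± 10.6 and 208.0 ± 2.98 CPM in SCR, DHX34 and UPF1 (n = 3 each). Since the sources used here do not say whether strand was kept, reads of the shared stretch cannot be told apart, and ATP5F1E was lower than in SCR in both knockdowns.

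THBS1 (ENSG00000137801, chr15:39581079-39599466, plus strand), which encodes thrombospondin-1, a glycoprotein that platelets store in α-granules and that fibroblasts and other cells also make, had the largest difference. It was at 1.01, 1.14 and 1.55 CPM in SCR, at 11.8, 12.1 and 13.3 CPM after DHX34 knockdown and at 1.02, 1.19 and 1.05 CPM after UPF1 knockdown. The DHX34 libraries stood far apart, and the UPF1 libraries fell within the range of SCR. The group means were 12.4 ± 0.792 CPM after DHX34 knockdown and 1.23 ± 0.278 CPM in SCR (n = 3 each), a log2 fold change of 3.31 or 9.94-fold, and 3.52 on the log2 scale when SCR replicate 3, the highest control, was left out. The marker list of endothelial and fibroblast genes did not hold THBS1. Of its fibroblast genes, COL1A1 was at 0.700 CPM in SCR and 4.82 CPM after DHX34 knockdown on average. COL1A2, in contrast, was at 7.75 and 5.20 CPM, and LUM was at 0 in every library. Over the 10 endothelial and fibroblast markers, 8 stayed under 1 CPM and the sum was 7.95 to 10.0 CPM in SCR and 10.1 to 10.9 CPM after DHX34 knockdown. Their part in the THBS1 difference was not tested.

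MEIS1 (ENSG00000143995, chr2:66433452-66573869, plus strand) is a homeobox factor that acts in blood stem cells and in early megakaryocyte development. It was at 4.20, 4.26 and 4.09 CPM in SCR, at 5.55, 6.27 and 5.94 CPM after DHX34 knockdown and at 3.91, 4.02 and 4.33 CPM after UPF1 knockdown. The DHX34 libraries were higher than all others by a modest step, and the UPF1 and SCR libraries overlapped. The log2 fold change for DHX34 was 0.50 (1.41-fold).

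Genes under 5 CPM on average over the 9 libraries were taken as low and the others as abundant, which gave 4 members on each side. The low members were THBS1 (mean 4.90 CPM), MEIS1 (4.73), ITGB3 (0.965) and CD9 (0.532), and the abundant ones were GP1BB, GP6, TUBB1 (8.21) and ITGA2B (7.60). THBS1 and MEIS1 lay just inside the limit, and THBS1 was near it only because of its DHX34 libraries. ITGA2B was on the abundant side only through its DHX34 libraries, since its means in SCR and UPF1 were 3.90 and 4.18 CPM. Among the low members the log2 fold change for DHX34 ran from 0.50 for MEIS1 to 3.31 for THBS1, and among the abundant ones from -0.45 for GP1BB to 1.92 for ITGA2B.

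Per length, in SCR the order was GP1BB (130.9 ± 5.75 TPM), GP6 (6.54 ± 0.107), TUBB1 (2.21 ± 0.105), MEIS1 (1.99 ± 0.227), ITGA2B (1.56 ± 0.501), CD9 (0.409 ± 0.0721), THBS1 (0.169 ± 0.0363) and ITGB3 (0.130 ± 0.00943 TPM, n = 3 each). TUBB1 overlapped MEIS1 and MEIS1 overlapped ITGA2B, and the lowest THBS1 library was just above the highest ITGB3 library. After DHX34 knockdown ITGA2B, at 5.72 ± 0.581 TPM, stood between GP6 (8.56 ± 0.288) and TUBB1 (3.84 ± 0.301), with no overlap with either. THBS1, at 1.99 ± 0.261 TPM, was then below MEIS1 (3.17 ± 0.584) and above CD9 (0.698 ± 0.125). After UPF1 knockdown the order of the means was that of SCR, and CD9, THBS1 and ITGB3 overlapped.

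The differences were set beside the length of the transcripts, because the log2 fold change for DHX34 was correlated with length across the 17004 genes tested (Spearman rho 0.22, genes not being independent replicates). Genes within 0.25 log2 units of the length of THBS1 had a median of 0.15 and those near ITGA2B a median of 0.04. Among genes of like length the 95th percentile was 0.72 for THBS1, 0.69 for ITGA2B and 0.66 for ITGB3, below those members' values. It was 0.67 for TUBB1, 0.66 for CD9, 0.71 for MEIS1 and 0.72 for GP6, above the values of these members. With the trend on length removed within each library, an alternative chosen after seeing the data, the log2 fold change was 3.15 for THBS1, 1.85 for ITGA2B and 1.73 for ITGB3.

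**Figure D2:**
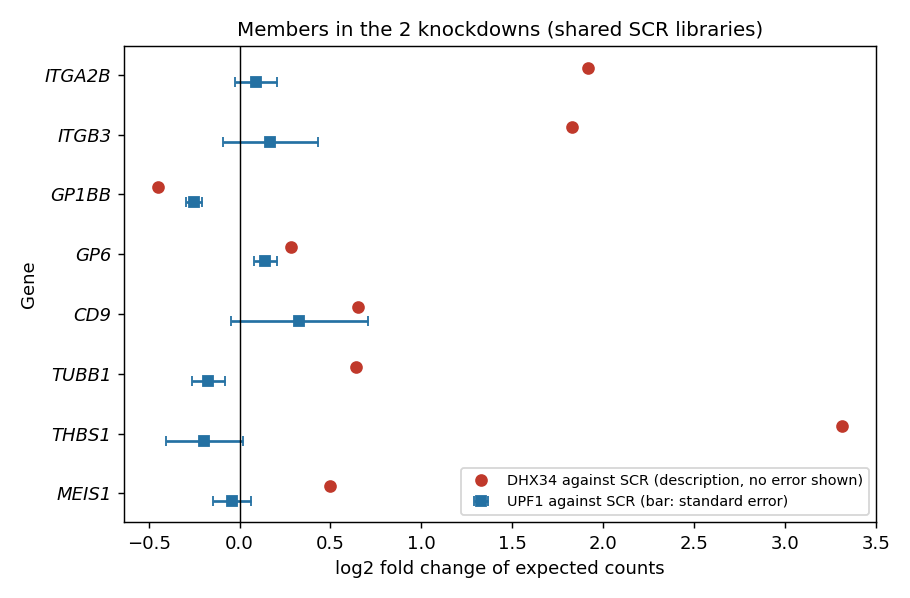
Log2 fold change of expected counts (horizontal axis) for each member (vertical axis) in the DHX34 knockdown (circles, a description with no error drawn) and the UPF1 knockdown (squares, bars of 1 standard error), both against the same 3 SCR libraries. THBS1, ITGA2B and ITGB3 lie at 3.31, 1.92 and 1.83 for DHX34 and between -0.19 and 0.17 for UPF1, where counts scaled for the length of the transcripts used, not drawn, gave 0.91 for THBS1 and 0.59 for ITGB3. Those scaled counts are built from TPM, in which a few reads on short fragments weigh heavily.

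Against SCR, UPF1 knockdown changed 1 of the 8 members by edgeR's quasi-likelihood test with Benjamini-Hochberg adjustment over 17184 genes, and 25.3% of all genes tested were called, 12.9% as lower. GP1BB fell, with a log2 fold change of -0.25 (SE 0.0461, adjusted p = 0.000901). That call was lost when SCR replicate 2 was left out (-0.25, adjusted p = 0.00544). It was also lost with limma on log2(TPM + 0.5), at -0.07 (adjusted p = 0.295). In that limma setting the median of all genes was 0.21, against 0.02 in the edgeR fit. The locus limits given above hold for the GP1BB call too. The other 7 members did not pass, and their log2 fold changes and standard errors were 0.09 (SE 0.115) for ITGA2B, 0.17 (0.262) for ITGB3, -0.19 (0.211) for THBS1, -0.17 (0.0917) for TUBB1, 0.14 (0.0635) for GP6, -0.04 (0.104) for MEIS1 and 0.33 (0.377) for CD9. Their adjusted p ran from 0.0993 for GP6 to 0.791 for MEIS1. With length-scaled counts THBS1 turned to 0.91 (adjusted p = 0.12), ITGB3 was at 0.59 (0.24) and MEIS1 at -0.26 (0.178), so the UPF1 values of these members depended on the scaling, and none of them was called. Such counts are built from TPM, which for THBS1 and ITGB3 includes short fragments of few reads, given below. The coding transcript THBS1-201 was at 0.169 ± 0.0363 TPM in SCR and 0.164 ± 0.0163 TPM after UPF1 knockdown. ITGB3-201 was at 0.130 ± 0.00942 and 0.166 ± 0.0150 TPM. The part of the fragments in the scaled values was not tested. The standard errors above allow changes of some size in ITGB3 and CD9, whose counts were lowest. The groups did not overlap in 3 members, higher in ITGB3 and GP6 and lower in GP1BB, where 50.5% of all genes tested showed no overlap, 26.9% as higher and 23.6% as lower. The comparison shares its SCR libraries with the DHX34 comparison, and its outcome for some members was known when they were listed.

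Set directly beside DHX34 knockdown, the UPF1 libraries were lower in 6 members and higher in GP1BB, without overlap, and overlapped in CD9, where 45.7% of all genes showed no overlap, 23.0% as higher and 22.7% as lower. The log2 differences, UPF1 minus DHX34, were -3.50 for THBS1, -1.81 for ITGA2B, -1.64 for ITGB3, -0.79 for TUBB1, -0.52 for MEIS1, -0.30 for CD9, -0.12 for GP6 and 0.21 for GP1BB. No test is given, since the DHX34 libraries chose the members. The THBS1 value was -2.44 with length-scaled counts and -1.54 or -1.13 with limma on log2(TPM + 0.5) or log2(TPM + 1), scales that understate changes of genes at low TPM, and ITGB3 was at -1.22 with length-scaled counts. The CD9 value depended on single libraries, at -0.76 without UPF1 replicate 3, the highest of its group, and -0.0042 without UPF1 replicate 2, the lowest.

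The files held 60 transcripts of the 8 genes, from 1 each for TUBB1 and GP1BB to 17 for MEIS1, and 27 took at least 5% of their gene's TPM in a group. The coding transcript ITGA2B-201 was at 1.05, 1.02 and 1.09 TPM in SCR, at 4.47, 4.83 and 4.59 TPM after DHX34 knockdown and at 1.48, 1.35 and 1.22 TPM after UPF1 knockdown. The DHX34 libraries stood apart for this transcript as for the gene. The other ITGA2B transcripts with reads were retained-intron forms, which took 28.1 ± 20.1% of the gene's TPM in SCR, 18.6 ± 6.91% after DHX34 knockdown and 25.2 ± 4.99% after UPF1 knockdown (n = 3 each), shares that overlapped.

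THBS1-201, the full coding transcript, was at 0.137, 0.161 and 0.208 TPM in SCR, at 1.77, 1.83 and 2.10 TPM after DHX34 knockdown and at 0.163, 0.181 and 0.148 TPM after UPF1 knockdown. The coding transcript thus carried the difference of the gene. Retained-intron fragments took 0, 50.8 and 74.3% of THBS1 TPM in the UPF1 libraries, but on 4.00 expected counts of THBS1-203 in replicate 2 and 11.1 of another such fragment in replicate 3, since a few reads on a short transcript weigh heavily in TPM. ITGB3 showed the same sensitivity: its coding transcript ITGB3-201 was at 0.136, 0.135 and 0.119 TPM in SCR and 0.460, 0.519 and 0.568 TPM after DHX34 knockdown, while ITGB3-203, annotated as a target of NMD, had 2.00 expected counts in UPF1 replicate 1 and none elsewhere. No rise of an NMD-annotated form of ITGB3 could be detected at this depth.

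For GP6, the levels of a pair of coding transcripts are given because they lay on opposite sides of SCR in the UPF1 libraries, a difference that edgeR did not call. GP6-203 was at 4.44, 5.07 and 4.75 TPM in SCR, at 6.19, 6.77 and 7.14 TPM after DHX34 knockdown and at 7.36, 6.49 and 6.39 TPM after UPF1 knockdown. GP6-201, of nearly the same length, was at 0.995, 1.10 and 1.28 TPM in SCR, at 1.64, 1.36 and 1.25 TPM after DHX34 knockdown and at 0.644, 0.726 and 0.706 TPM after UPF1 knockdown. In the UPF1 libraries the first was above SCR and the second below it, with no overlap in either. The share of GP6-201 was 17.2 ± 1.88% in SCR and 8.55 ± 1.03% after UPF1 knockdown (n = 3 each, exact two-sided permutation p = 0.1, the smallest that 3 against 3 can give), and that of GP6-203 was 72.7 ± 4.45% and 82.9 ± 1.38% (exact permutation p = 0.1). The pair was picked because its levels separated in these same libraries, so nothing is read from these p. The shares of ITGA2B-209 (-4.48 percentage points) and ITGA2B-206 (2.96) gave the same permutation p, on few reads. Of the 18 member transcripts tested by edgeR over 62497 transcripts, 0 were called at an adjusted p of at most 0.005, and 3 had an unadjusted p under 0.05, where 2.59% and 22.7% of all transcripts did. DESeq2 called 2 of them, GP6-201 (log2 fold change -0.98, adjusted p = 1.59e-05) and GP1BB-201 (-0.32, adjusted p = 7.62e-07), which had the lowest adjusted p in edgeR too, at 0.0279 and 0.0239. DESeq2 called 13.9% of the transcripts for which it gave an adjusted p.

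For CD9 the reads moved among 3 similar coding transcripts from library to library. CD9-201 took 100, 0 and 59.9% of the gene's TPM in the SCR libraries and 96.5, 0 and 0% in the UPF1 libraries, with no more than 35.6 expected counts in any library, so its isoforms could not be resolved. MEIS1 was spread over many transcripts, with 62.9 ± 10.6% of its TPM on coding ones in SCR, 59.4 ± 7.43% after DHX34 knockdown and 71.2 ± 5.47% after UPF1 knockdown (n = 3 each), the SCR shares overlapping those of both knockdowns.

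**Figure D3:**
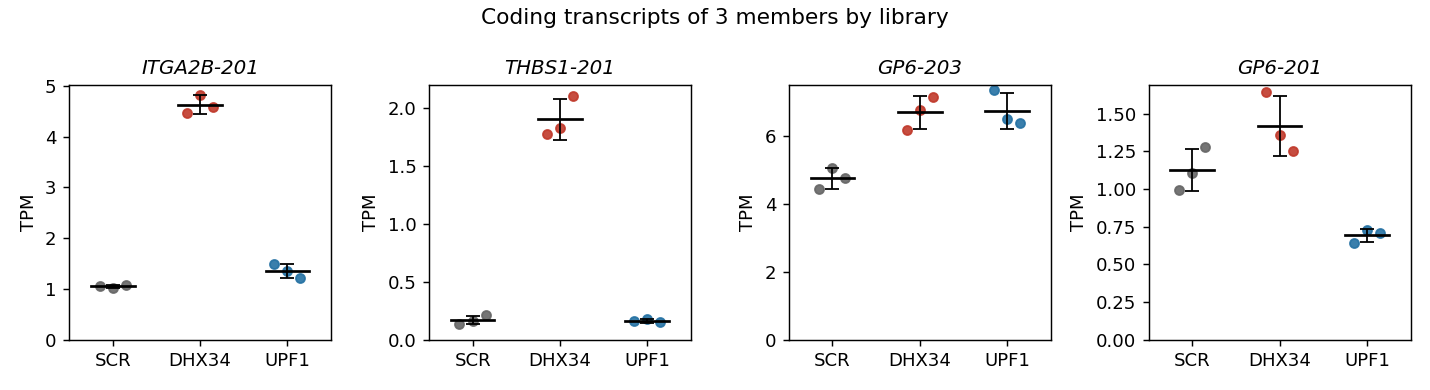
TPM (vertical axes, linear, from 0) of 4 coding transcripts by siRNA group (horizontal axis), with 1 point per library, a bar at the mean of 3 libraries and whiskers of 1 SD. ITGA2B-201 and THBS1-201 are high in the 3 DHX34 libraries alone, whereas GP6-203 is above SCR and GP6-201 below SCR in the 3 UPF1 libraries.

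The other genes of the lineage were taken from 5 lists of 88 genes in all, written from general knowledge: receptors, granule cargo and secretion, signalling, cytoskeleton and transcription factors. Earlier results of these data were known when the lists were written. The calls below therefore describe single genes, and no change of the lineage is read from their counts. Many of these genes are not restricted to the lineage. Of these, 68 passed the filter in the DHX34 comparison, where 16 rose and 3 fell, and 68 in the UPF1 comparison, where 10 rose and 18 fell. Over all genes tested, 5.54% rose and 4.86% fell after DHX34 knockdown, and 12.4% rose and 12.9% fell after UPF1 knockdown. The median log2 fold change of the 68 genes was 0.18 for DHX34 and -0.04 for UPF1, beside 0.02 for all genes in both. The 2 comparisons share the SCR libraries.

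The signalling list had the most calls after DHX34 knockdown: 7 of 16 genes rose and none fell, with a median log2 fold change of 0.47. FYB1, an adaptor that links platelet receptors to integrin activation, rose from 7.06 ± 0.324 to 16.9 ± 0.892 CPM (log2 fold change 1.26, SE 0.0753, edgeR adjusted p = 3e-06). RASGRP2, the exchange factor that switches on Rap1 ahead of αIIbβ3 activation, rose from 3.81 ± 0.442 to 8.74 ± 1.04 CPM (1.20), PTGS1, the cyclooxygenase that aspirin blocks in platelets, from 4.10 ± 0.551 to 8.55 ± 0.660 CPM (1.06), and VAV1, an exchange factor for Rac, from 11.7 ± 0.829 to 22.0 ± 1.21 CPM (0.90). TLN1, the talin that binds the β3 tail, rose from 303.8 ± 13.6 to 476.2 ± 8.01 CPM (0.65) and the kinase SYK from 38.8 ± 2.15 to 53.0 ± 0.545 CPM (0.45). Each kept its call when any 1 library was left out, and TLN1 and SYK lost it with length-scaled counts, at 0.43 (adjusted p = 0.00728) and 0.44 (0.00641). After UPF1 knockdown 1 signalling gene rose and 4 fell. FYB1 fell by 0.69 on the log2 scale, VAV1 by 0.41, FERMT3, the kindlin of blood cells, by 0.30 and the kinase LYN by 0.23. RASGRP2 rose by 0.62 there too, a call lost without UPF1 replicate 2 (adjusted p = 0.00853).

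Among receptors, 4 of 16 rose and 1 fell after DHX34 knockdown. PEAR1, a receptor that strengthens platelet aggregation, rose from 9.36 ± 0.468 to 16.1 ± 2.11 CPM (log2 fold change 0.78). F2RL3, a thrombin receptor, rose by 0.34, TBXA2R, the thromboxane receptor, by 0.35 and ITGA5, an integrin chain for fibronectin, by 0.18, while CD226, an adhesion receptor at 1.47 CPM in SCR, fell by 0.96. F2RL3 lost its call with length-scaled counts (adjusted p = 0.032). The calls of TBXA2R and ITGA5 were kept in 1 of 6 fits that left out 1 library, the fit without DHX34 replicate 3, with adjusted p of up to 0.00985 and 0.0305 in the others, and that of CD226 in 0 of 6, with adjusted p of up to 0.0169. After UPF1 knockdown 1 receptor rose and 3 of 15 fell: PECAM1 fell by 0.59, PEAR1 by 0.44 and F2R, the main thrombin receptor, by 0.33, and P2RY1, an ADP receptor, rose by 0.23. With limma on log2(TPM + 0.5) none of the 3 was called, with PEAR1 at -0.0049 (adjusted p = 0.968) and F2R at -0.15 (0.178) and PECAM1 at -0.51 (0.186). The median of all genes was 0.21 in that limma setting. With length-scaled counts PEAR1 was at -0.23 (0.102). The P2RY1 call was lost without SCR replicate 1, UPF1 replicate 2 or UPF1 replicate 3, with adjusted p of up to 0.0115.

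Of 12 granule and secretion genes that passed the filter, 1 rose after DHX34 knockdown, ANGPT1, a growth factor stored in α-granules, from 51.3 ± 1.45 to 63.5 ± 0.732 CPM (log2 fold change 0.30). After UPF1 knockdown 4 rose and 4 fell. PDGFA rose by 1.22, ANGPT1 by 0.62, NBEAL2, a protein needed to form α-granules, by 0.33 and VEGFA by 0.32, and SPARC fell by 0.74 and TIMP1 by 0.64. The NBEAL2 call was lost without any 1 of the 3 UPF1 libraries, with adjusted p of up to 0.0143, with DESeq2 (0.32, adjusted p = 0.00589), in the fit of all 9 libraries (0.33, 0.0137) and with length-scaled counts, where the value was 0.024 (0.861).

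In the cytoskeleton list 2 genes rose and 1 of 11 fell after DHX34 knockdown. FLNA, the filamin that anchors GPIb to actin, rose by 0.41 and VCL, vinculin, by 0.37, while ZYX, zyxin, fell by 0.21, a call kept in 1 of 6 fits, that without DHX34 replicate 3, with adjusted p of up to 0.00909 in the others. FLNA was 0.04 with length-scaled counts (adjusted p = 0.625). After UPF1 knockdown 2 rose and 2 of 12 fell: VCL rose by 0.20 and FLNA by 0.16, GSN, gelsolin, fell by 0.53 and TUBA4A by 0.34. The FLNA value for UPF1 turned to -0.12 with length-scaled counts (adjusted p = 0.0144), and its call was kept in 1 of 6 fits, that without SCR replicate 2.

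Of the factors, 15 of 16 were matched by symbol (MKL1 was not) and 13 passed the filter, with 2 that rose and 1 that fell after DHX34 knockdown. ZFPM1, the GATA1 cofactor FOG1, rose by 0.33 and RUNX1 by 0.21, and GATA2, which marks early progenitors, fell from 318.4 ± 2.47 to 257.3 ± 6.66 CPM (log2 fold change -0.31). The RUNX1 call was kept in 0 of 6 fits that left out 1 library, with adjusted p of up to 0.025. GATA1 was at 263.6 ± 10.48 CPM in SCR and 268.5 ± 8.87 CPM after DHX34 knockdown and was not called. FLI1 and ERG, the ETS factors of the lineage, were at or under 0.016 CPM on average in each group. After UPF1 knockdown 2 factors rose, RUNX1 by 0.49 among them, and 5 fell: NFE2 by 0.48, ZFPM1 by 0.47, GATA2 by 0.30, GATA1 by 0.29 and GFI1B by 0.29.

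**Figure D4:**
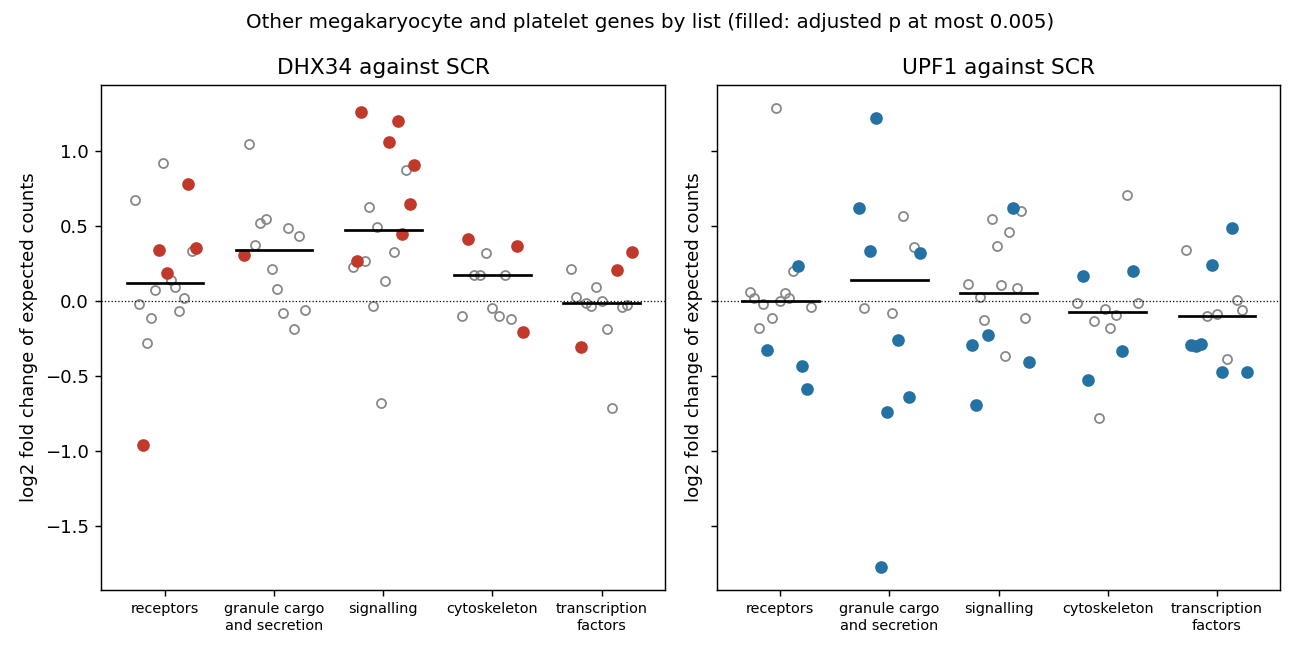
Log2 fold change of expected counts (vertical axes) of the genes of the 5 other megakaryocyte and platelet lists that passed the filter (1 circle per gene, in columns by list) for DHX34 against SCR and UPF1 against SCR, with black bars at list medians and filled circles for an adjusted p of at most 0.005. For DHX34, 16 filled circles lie above 0 and 3 below, with 7 of the former in the signalling column, and for UPF1 10 lie above and 18 below.

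UPF1 and DHX34 knockdown were also compared over the same lists. Of 69 genes tested, 5 were higher and 26 lower in the UPF1 libraries than in the DHX34 libraries, where 9.89% and 7.47% of all genes were and 17.4% in either direction, and 8 of the 16 signalling genes were among those lower. Here too the median was negative, at -0.14 on the log2 scale beside 0.01 for all genes.

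Some markers of other blood lineages differed from SCR after the knockdowns. The summed erythroid markers were at 12109 to 13379 CPM after DHX34 knockdown and at 8741 to 9078 CPM after UPF1 knockdown, against 14810 to 15805 CPM in SCR, and 5 and 10 of 15 fell, while 0 rose after DHX34 knockdown and 1, the transferrin receptor TFRC, rose after UPF1 knockdown (log2 fold change 0.40). The sum was carried by the globins, HBG2 alone being at 4798 CPM in SCR. After DHX34 knockdown the groups did not overlap in 7 markers that were lower and 5 that were higher (HBZ, EPOR, TFRC, SLC4A1 and AHSP), with a median log2 fold change of -0.07. Over all genes tested, 19.9% were lower and 21.6% higher without overlap in that comparison. Of all genes, 4.86% were called as lower and 5.54% as higher after DHX34 knockdown, and 12.9% and 12.4% after UPF1 knockdown. The monocyte and granulocyte markers summed to 45 to 48.2 CPM in SCR, 74.7 to 82.2 CPM after DHX34 knockdown and 32.7 to 34.0 CPM after UPF1 knockdown, carried by LYZ and CD68, while 9 of the 12 stayed under 1 CPM and S100A8 was at 0 in every library. The lymphoid markers summed to 12.4 to 12.7, 12.1 to 13.3 and 4.39 to 5.07 CPM in the same order, the DHX34 range spanning that of SCR. LYZ and CD68 thus moved in the direction of ITGA2B and THBS1 in the DHX34 libraries, and the erythroid sum in that of GP1BB. Their part in the members' differences was not tested.

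The 5 genes whose levels over the 9 libraries were most like the mean profile of the 4 abundant members, among 10059 genes of at least 5 CPM, were RHBDF1 (Pearson r = 0.98), IMPDH1 (0.98), PHLDB1 (0.97), ENO2 (0.97) and MAP4K2 (0.97). These r describe 9 libraries that fall into 3 groups and carry no test. RHBDF1 was at 5.79, 7.53 and 5.65 CPM and PHLDB1 at 33.9, 46.9 and 33.9 CPM on average in SCR, DHX34 and UPF1, so the likeness lies in the higher DHX34 libraries. The profile includes ITGA2B, which was on the abundant side through its DHX34 libraries alone. The r of each member with this mean was 0.94 for ITGA2B, 0.93 for TUBB1, 0.81 for GP6 and -0.61 for GP1BB. GP1BB, the most abundant member, thus ran against the profile. Each of these r is partly that of a gene with itself, since the 4 members make up the mean. The members were also chosen on the DHX34 libraries, so nothing is read from their r.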

How the data were processed

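Poly(A) RNA of 9 K562 libraries, 3 for each siRNA, was sequenced by the study. The authors quantified transcripts with salmon on Ensembl GRCh38 sequences, and the deposited files give an expected count and a TPM for each of 203027 transcripts. The authors' tables of sleuth tests (effect sizes, p and q) and SUPPA2 tests (splicing differences and p) were not used. Here transcripts were joined to GENCODE 44 genes by identifier without version (97.9% matched, holding 98.1% of the counts) and summed per gene. Counts were rounded, scaled by TMM and tested with edgeR 4.0.16 (quasi-likelihood, minimum count 10 in the low-count filter) in R 4.3.3, using only the 6 libraries compared, with Benjamini-Hochberg adjustment over all genes and a call at an adjusted p of at most 0.005. Alternatives used DESeq2 1.42.0, limma 3.58.1 on log2(TPM + 0.5) or log2(TPM + 1) with a mean of at least 1 TPM, no filter, all 9 libraries, length-scaled counts, the replicate number as a block, and each library left out. Scripts were tested on simulated data. Isoform shares were tested by exact permutation with SciPy 1.17.1. The replicates are stated to be biological. Same-numbered SCR and UPF1 libraries deviated together (r = 0.51, 0.15 and 0.31 over 10064 genes), so their numbers may pair them. The pairing is not clear, since SCR replicate 3 and UPF1 replicate 2 had an r of 0.22. The tests reported did not use it. With the replicate number as a block, the calls of the members and the counts of the lists in UPF1 knockdown stayed as they were. The members and lists were chosen with earlier results of these data known. All members were named, and of the other lists those called at 1 CPM or more on average, at most 6 per list with the largest change. Read counts set the precision, and the totals are given with the results.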

Additional observations from a re-analysis of the deposited data

How the results depend on the processing

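The direction of the members' DHX34 differences was the same in every alternative that gave a value, with 7 positive values in each but limma on TPM, where 5 were positive because members under 1 TPM on average were not fitted. Their size moved, most for THBS1, at 1.89 and 1.35 with limma at a pseudocount of 0.5 and 1 against 3.31. For the members in UPF1 knockdown, 1 was called as lower in the analysis reported and 0 with limma at either pseudocount, 0 to 1 when single libraries were left out. For the other lists in DHX34 knockdown, 16 rose and 3 fell as reported. With length-scaled counts 9 rose, and at an adjusted p of at most 0.05 25 rose and 5 fell. The number that fell was 5 with DESeq2, 6 without the filter, 0 with limma at either pseudocount, 1 with the replicate block, 5 with the length trend removed, and 1 to 2 when single libraries were left out, among which SCR replicates 1 and 3 and DHX34 replicates 1 and 2 gave 1. In UPF1 knockdown 10 rose and 18 fell as reported. The number that rose was 6 with length-scaled counts, 6 with the length trend removed, and 6 to 10 when single libraries were left out, with 6 without UPF1 replicate 2. The number that fell was 2 with limma at either pseudocount, a setting that moved the median of all genes to 0.21 or 0.19 (0.16 or 0.15 for DHX34). Over all genes the split of higher and lower calls was 942 and 826 for DHX34 and 2131 and 2214 for UPF1, against 911 and 125 and 3413 and 313 with limma on log2(TPM + 0.5), and 643 and 1047 and 1606 and 3073 with the length trend removed. In UPF1 knockdown, where they were not called, THBS1 turned from -0.19 to 0.91 and ITGA2B from 0.09 to -0.0044 with length-scaled counts. For THBS1 these counts carry the short fragments of few reads described above. FLNA in UPF1 knockdown turned to -0.12 with length-scaled counts, and LYN to 0.0274 and 0.0272 with limma at a pseudocount of 0.5 and 1, from -0.23. These limma values of LYN lay below the median of all genes in the same settings, at 0.21 and 0.19. Of the member isoforms 0 were called as reported, 2 with DESeq2 and 2 at an adjusted p of at most 0.05. The causes were not tested. Among the named genes of the lists, length-scaled counts ended the DHX34 calls of CD226, F2RL3, FLNA, ITGA5, RUNX1, SYK, TBXA2R and TLN1 and the UPF1 calls of F2R, GSN, NBEAL2, P2RY1, PEAR1, PECAM1, RASGRP2 and VAV1. Limma at either pseudocount ended the DHX34 calls of F2RL3, FLNA, GATA2, ITGA5, RUNX1 and ZYX and the UPF1 calls of F2R, FERMT3, FLNA, FYB1, GATA1, GATA2, GFI1B, GSN, NBEAL2, PEAR1, PECAM1, RASGRP2, SPARC, TUBA4A, VAV1 and ZFPM1, DESeq2 that of NBEAL2 for UPF1, and the fit of all 9 libraries those of CD226 for DHX34 and NBEAL2 for UPF1. The replicate block ended the DHX34 calls of CD226, ITGA5, RUNX1 and ZYX, and removal of the length trend those of ITGA5, RUNX1 and ZFPM1 for DHX34 and of FLNA, NBEAL2, P2RY1 and VCL for UPF1. The same-numbered SCR and DHX34 libraries did not deviate together (r = -0.07, -0.17 and -0.40), while SCR replicate 2 and DHX34 replicate 3 had an r of 0.32. With 3 libraries per group such r cannot settle whether the numbers pair the libraries. The block took the DHX34 calls over all genes to 604 and 403. For same-numbered DHX34 and UPF1 libraries the r were -0.17, 0.14 and -0.20. Depth limited ITGB3 and CD9 most, and their isoforms could not be compared.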
